A study of Homo sapiens with 24 samples.

Results

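The 6 genes described here, CYP1A1, CYP1B1, AHR, AHRR, ARNT, and TIPARP, belong to the aryl hydrocarbon receptor pathway and were taken by symbol from a table of 26645 genes. They were chosen by the counts of CYP1A1, which had been seen to be lower soon after the media switch in both cell lines, so their levels at 0.5 and 2 h are given as a description, with no test. RNA was sequenced from 24 libraries, 3 in each of 8 groups. MB468 stands for MDA-MB-468, a line of human breast cancer cells of the triple-negative class, and MB468res-R8 (MDA-MB-468res-R8) is 1 clone derived from it by long culture in homocysteine (Hcy) medium, so that any difference between the lines is that between 1 parental line and 1 clone. Cells at 0 h were in methionine medium (Met+, 100 µM Met), and cells at 0.5, 2, and 12 h had been switched to medium in which Met was replaced by its precursor (Met-Hcy+, 370 µM DL-Hcy). Both media were otherwise the same DMEM with dialyzed serum, vitamin B12, glutamine, and cysteine. No library analysed here came from cells given fresh Met+ medium, so the loss of Met, the change of medium, and the time after it cannot be told apart.

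The aryl hydrocarbon receptor, the product of AHR, is a transcription factor that rests in the cytoplasm with chaperones until a small molecule such as a dioxin, a plant indole, or a tryptophan metabolite binds it. It then pairs with ARNT in the nucleus and binds DNA elements with the core letters GCGTG near its targets, of which the xenobiotic-metabolizing cytochromes CYP1A1 and CYP1B1 are the best known. AHRR and TIPARP are themselves targets that feed back on the receptor, AHRR by competing for ARNT and TIPARP by ADP-ribosylating the receptor, and in breast epithelium the pathway is known mainly for its part in the metabolism of estrogens and aromatic hydrocarbons.

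The sequences before the starts of 3 targets are shown because these genes moved by very different amounts while each held the core letters close to its start. They are the RefSeq windows of 250 bases before the annotated start on GRCh38.p14, in lower case with each GCGTG, or CACGC where the match is on the other strand, in capitals. The window of CYP1A1 (chr15:74725537-74725778, minus strand) is cut to 242 bases where an annotated exon begins, and the windows of AHRR (chr5:321464-321713) and TIPARP (chr3:156674340-156674589) are on the plus strand. The fourth sequence is the 300-base stretch 1117 to 818 bases before the CYP1A1 start (chr15:74726346-74726645, minus strand, GRCh38), with matches to the longer element TNGCGTG, or CACGCNA on the other strand, in capitals. It was picked, for CYP1A1 alone, as the stretch with the most such matches in 1500 bases, leaving out the 250 nearest the start. Its density of matches is therefore the result of that choice.
CYP1A1 promoter: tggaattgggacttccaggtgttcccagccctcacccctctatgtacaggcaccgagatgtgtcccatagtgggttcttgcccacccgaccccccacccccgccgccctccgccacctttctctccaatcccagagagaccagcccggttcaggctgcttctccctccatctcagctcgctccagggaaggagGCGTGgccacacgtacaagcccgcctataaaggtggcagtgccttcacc
AHRR promoter: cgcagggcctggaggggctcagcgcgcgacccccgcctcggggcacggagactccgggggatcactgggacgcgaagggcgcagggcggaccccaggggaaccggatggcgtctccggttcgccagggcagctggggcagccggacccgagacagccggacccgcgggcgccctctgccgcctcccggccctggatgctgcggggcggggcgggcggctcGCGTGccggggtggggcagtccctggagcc
TIPARP promoter: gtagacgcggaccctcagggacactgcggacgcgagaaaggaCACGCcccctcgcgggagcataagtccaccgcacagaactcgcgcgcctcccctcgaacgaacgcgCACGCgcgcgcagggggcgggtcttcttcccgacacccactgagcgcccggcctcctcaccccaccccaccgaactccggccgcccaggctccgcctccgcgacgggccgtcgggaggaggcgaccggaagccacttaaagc
CYP1A1 upstream stretch: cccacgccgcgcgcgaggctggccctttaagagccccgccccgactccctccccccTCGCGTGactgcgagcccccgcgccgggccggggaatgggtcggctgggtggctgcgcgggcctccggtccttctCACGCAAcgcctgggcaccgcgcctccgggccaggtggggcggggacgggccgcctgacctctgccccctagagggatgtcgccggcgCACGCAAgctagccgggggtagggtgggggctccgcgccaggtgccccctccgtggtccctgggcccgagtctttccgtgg
The CYP1A1 promoter held 1 core match, 57 to 53 bases before the start, the printed AHRR start held 1, 30 to 26 bases before, and the printed TIPARP start held 2. RefSeq lists another start for AHRR, 322610, with 2 core matches, and 2 further starts for TIPARP, 156674926 and 156676664, with none. The longer element matched at 1 place in the printed AHRR window and at none in those of CYP1A1 and TIPARP, and 4.52% of starts had it within 250 bases. In the same window the core was present before 32.2% of 35116 annotated starts, so its presence alone did not set these genes apart. It was absent from these letters in AHR and ARNT, and CYP1B1 had no entry. Over 1500 bases CYP1A1 had 10 core and 5 longer matches, and 0.629% and 0.0228% of starts had as many of each. The AHRR starts had 4 and 8 core matches, the latter a number that 1.8% of starts reached, and 1 longer match each. The TIPARP starts had 6, 6, and 2 core matches and 0, 0, and 1 longer ones, ARNT had 5 and 2, and AHR had neither. The longer element was found in the 1500 bases before 23.2% of starts. A match is a description of letters and not evidence of a bound site.

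The libraries held 11745553 to 36496655 counts, with a median of 20503827, and 0.2014 to 0.3026% of counts came from the spike-ins added to the RNA. Epithelial markers were high in every library, EPCAM at 286 to 437 CPM (counts scaled to a common library size) and KRT8 at 1010 to 2480 CPM, and EGFR, which this line carries at a high level, was at 2100 to 4280 CPM. The progesterone receptor gene PGR was at 0 to 0.0983 CPM and the leukocyte marker PTPRC at 0 to 0.199 CPM. The other markers checked were detected in every library, the estrogen receptor gene ESR1 at 4.15 to 22.6 CPM, ERBB2 at 38.3 to 97.3 CPM, the collagen gene COL1A1 at 14.6 to 73.2 CPM, and the endothelial marker PECAM1 at 0.344 to 2.67 CPM. Their part in the results was not tested. The library of replicate 2 of MB468 at 2 h stood apart by 8251 counts of the small nuclear RNA RN7SK against 44 to 357 in the other 23, and log2 values of the members at that time are given with and without it. Leaving it out changed the mean counts of CYP1A1 per 100 of CYP1B1, CYP1A1 per 100 of TIPARP, and TIPARP per 100 of CYP1B1 at that time from 4.28 to 4.31, 25.2 to 24.6, and 17 to 17.6. Levels below are normalized counts, the counts scaled to a library of 22748285, as mean ± SD over n = 3 libraries. The labels do not say that the 3 libraries of a group came from separate cultures, so the p-values measure the spread between libraries, which may be technical. In bulk RNA, a lower level in each cell and fewer cells that express a gene cannot be told apart.

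Before the switch the 2 cytochromes were high. CYP1B1 (chr2:38067509-38076151) stood at 32270 ± 675.6 normalized counts in the parental line and at 27450 ± 592.9 in the clone, and CYP1A1 (chr15:74719542-74725528) had 3281 ± 140.2 and 4944 ± 469.9. Per kilobase of the canonical transcript, CYP1B1 stood at 271.9 CPM per kb in MB468, above CYP1A1 at 55.4, AHR at 37.55, TIPARP at 28.28, ARNT at 15.15, and AHRR at 0.4579. In MB468res-R8 the order of CYP1A1 and AHR was kept on this scale, at 83.52 and 75.32 CPM per kb. AHRR therefore was at the edge of what these libraries measure, with 15 to 89 raw counts in each of the 24.

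AHR (chr7:17298652-17346147), the receptor itself, differed the most of the 6 between the lines at 0 h. Its normalized counts were 5257, 5351, and 5388 in the 3 MB468 libraries and 9975, 10809, and 11306 in those of MB468res-R8. The groups were far apart, and AHR was higher in the clone by a log2 value of 1.01 (SE 0.0493, edgeR quasi-likelihood test with Benjamini-Hochberg adjusted p = 1.46e-19). CYP1A1 was higher by 0.59 (SE 0.0598, edgeR adjusted p = 2.22e-10), a call that was lost under spike-in scaling (0.28, edgeR adjusted p = 0.0533), and CYP1B1 differed by -0.23 (SE 0.0413, edgeR adjusted p = 7.07e-06). The 2 cytochromes thus differed between the lines in opposite directions, and CYP1A1 made up 18 ± 1.43 counts per 100 of CYP1B1 in MB468res-R8 against 10.2 ± 0.315 in MB468.

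TIPARP (chr3:156674590-156706770) was higher in MB468res-R8 by 0.29 at 0 h (SE 0.105, edgeR adjusted p = 0.027), a call that was lost without replicate 2 of MB468 or without replicate 1 or 3 of MB468res-R8 (0.24 to 0.27) and whose direction turned under spike-in scaling (-0.02). ARNT (chr1:150809713-150876599), the partner of the receptor, differed by -0.005, with a 95% interval of -0.099 to 0.089. The interval for AHRR (chr5:321714-438285), -0.85 to 0.16, spanned 0. In all, 3 of the 6 genes were called higher and 1 lower, where 53.5% of the 14741 genes tested were called, 26.4% higher and 27.1% lower. Scaled to the spike-ins, 1 was called higher (AHR) and 3 lower (CYP1B1, AHRR, and ARNT), with the median over all genes at -0.31. Relative to that median the values were 1.004 for AHR, 0.60 for CYP1A1, -0.23 for CYP1B1, and 0.29 for TIPARP. They are close to those above by construction, since a change of scaling shifts all genes by about the same amount. This closeness is no check on the calls.

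CYP1A1 was lower within 30 min of the switch in both lines. In MB468 the libraries had 3121, 3337, and 3384 normalized counts at 0 h and 250.4, 276.6, and 317.4 at 0.5 h, a level 11.83-fold lower (log2 fold change -3.57, SE 0.0793). In MB468res-R8 they had 4402, 5216, and 5216 at 0 h and 814.8, 855.6, and 969 at 0.5 h, 5.641-fold lower (-2.50, SE 0.067). Every library at 0.5 h was below every library at 0 h. Ordered from the most lowered gene, CYP1A1 stood at place 11 of 14741 in MB468 and at 51 in MB468res-R8, which is the property it was chosen for. Spread evenly over the 30 min, this is 1 halving per 8.42 min in MB468 and per 12 min in MB468res-R8. These figures only restate the fold change from 0 to 0.5 h and are not a measured half-life of the RNA.

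At 2 h CYP1A1 had come part of the way back. Its level was 1023, 1038, and 1104 normalized counts in MB468 and 2195, 2284, and 2338 in MB468res-R8, which is 32.15% and 45.95% of that at 0 h. Between 0.5 and 2 h it was 3.798-fold higher in MB468 and 2.594-fold higher in MB468res-R8, and each library at 2 h was above each at 0.5 h. Without the MB468 library that stood apart, the log2 difference from 0 h was -1.67 in place of -1.64.

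At 12 h CYP1A1 was low again, and now lower in the clone than in the parental line. MB468 had 339, 388.5, and 391.6 normalized counts and MB468res-R8 had 152.9, 173.5, and 183.3, or 11.37% and 3.436% of the level at 0 h. Against 0 h it fell by 3.14 on the log2 scale in MB468 (SE 0.0716, edgeR adjusted p = 2.82e-28) and fell by 4.87 in MB468res-R8 (SE 0.0825, edgeR adjusted p = 4.19e-31). The difference between these responses was -1.73 (SE 0.114, edgeR adjusted p = 8.12e-15), so a gene that began higher in MB468res-R8 ended 1.13 lower there on the log2 scale (log2 value -1.13, SE 0.0979, edgeR adjusted p = 1.85e-12). For this and the other 5 genes, the comparison with 0 h uses the same 0 h libraries as the early differences for which CYP1A1 was chosen and is no independent support for them. The order of the 8 groups ran from MB468res-R8 at 0 h down to MB468res-R8 at 12 h, and no neighbours in that order overlapped.

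**Figure D1:**
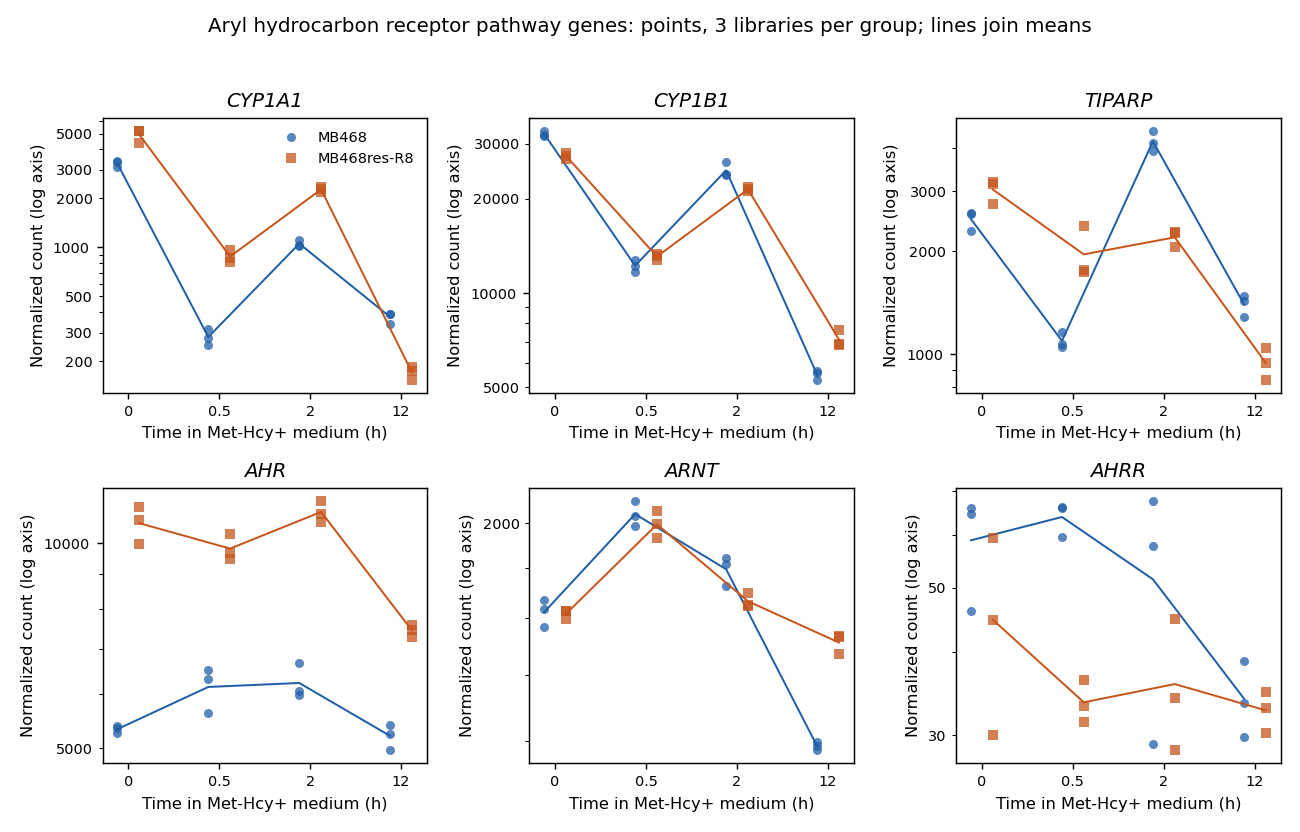
Normalized counts (log axis) of the 6 genes in each of the 24 libraries against time in Met-Hcy+ medium (h, evenly spaced categories), with MB468 in blue circles, MB468res-R8 in orange squares, and lines through the means of 3 libraries. CYP1A1 and CYP1B1 are low at 0.5 h, return in part at 2 h, and are low again at 12 h in both lines, TIPARP at 2 h stands at 3925 to 4505 in MB468 and 2053 to 2274 in MB468res-R8, and AHR is higher in MB468res-R8 at all 4 times.

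CYP1B1 followed the same course with smaller steps. In MB468 its normalized counts were 31793, 31984, and 33047 at 0 h, 11685, 12235, and 12802 at 0.5 h, 23844, 23954, and 26249 at 2 h, and 5271, 5565, and 5633 at 12 h. In MB468res-R8 they were 26894, 27382, and 28074 at 0 h, 12808, 13154, and 13323 at 0.5 h, 21138, 21497, and 21759 at 2 h, and 6850, 6857, and 7637 at 12 h. No neighbouring groups in the order of its levels overlapped. The level at 0.5 h was 37.93% of that at 0 h in MB468 and 47.72% in MB468res-R8, and at 2 h it was 76.48% (74.05% without the library that stood apart) and 78.18%. The log2 difference from 0 h at 2 h was -0.39 in MB468 and -0.43 without that library.

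By 12 h CYP1B1 fell by 2.56 on the log2 scale in MB468 (SE 0.0441, edgeR adjusted p = 6.6e-36) and fell by 1.95 in MB468res-R8 (SE 0.0432, edgeR adjusted p = 2.76e-31). Here the parental line moved further, and the difference between the responses was 0.61 (SE 0.0594, edgeR adjusted p = 1.65e-11), opposite in sign to that of CYP1A1. CYP1B1 was therefore 0.37 higher in MB468res-R8 at 12 h (SE 0.0427, edgeR adjusted p = 3.29e-10) although it had been lower there at 0 h. Of the 2 cytochromes, CYP1A1 had its lowest level at 0.5 h in MB468 and at 12 h in MB468res-R8, and CYP1B1 had its lowest at 12 h in both.

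TIPARP, an ADP-ribosyltransferase that restrains the receptor, separated the lines at 2 h. In MB468 its normalized counts were 2295, 2563, and 2593 at 0 h, 1046, 1072, and 1164 at 0.5 h, and 3925, 4149, and 4505 at 2 h, so that it went from 44.06% of the starting level at 0.5 h to 168.9% at 2 h. In MB468res-R8 they were 2756, 3149, and 3191 at 0 h, 1744, 1758, and 2374 at 0.5 h, and 2053, 2264, and 2274 at 2 h, so that the groups at 0.5 and 2 h overlapped and both lay below 0 h. The log2 difference from 0 h at 2 h was 0.76 (SE 0.106) in MB468, 0.77 without the library that stood apart, and -0.47 (SE 0.106) in MB468res-R8. Under spike-in scaling it was 0.33 (SE 0.13) in MB468 and -0.52 in MB468res-R8. Relative to the median of all genes the MB468 value was 0.75, near 0.76 by construction and no check on it. The difference between the lines at this time was not tested.

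At 12 h TIPARP had fallen in both lines, to 1286, 1432, and 1482 normalized counts in MB468 and 839.6, 944, and 1044 in MB468res-R8. The falls were 0.83 on the log2 scale (log2 fold change -0.83, SE 0.108, edgeR adjusted p = 2.06e-06) and 1.69 (log2 fold change -1.69, SE 0.114, edgeR adjusted p = 3.9e-10). The response differed between the lines by -0.87 (SE 0.156, edgeR adjusted p = 0.000124), the same sign as for CYP1A1.

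Counts of 2 genes set against each other within a library need no scaling between libraries, and are given with no correction for length. CYP1A1 per 100 counts of TIPARP was 132 ± 3.26 in MB468 at 0 h and then stayed between 23 and 29.6 in all 9 libraries at 0.5, 2, and 12 h. In MB468res-R8 it was 163 ± 3.01, 46.2 ± 10.8, 104 ± 9.04, and 18.1 ± 2.29 in the order of time. CYP1A1 per 100 counts of CYP1B1 was 10.2, 2.3, 4.28, and 6.81 in MB468 and 18, 6.72, 10.6, and 2.39 in MB468res-R8. In MB468 this ratio was higher at each later time after 0.5 h, whereas in MB468res-R8 it was lowest at 12 h. TIPARP per 100 counts of CYP1B1 was 7.69 at 0 h and 25.6 at 12 h in MB468, and 11 and 13.2 in MB468res-R8.

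**Figure D2:**
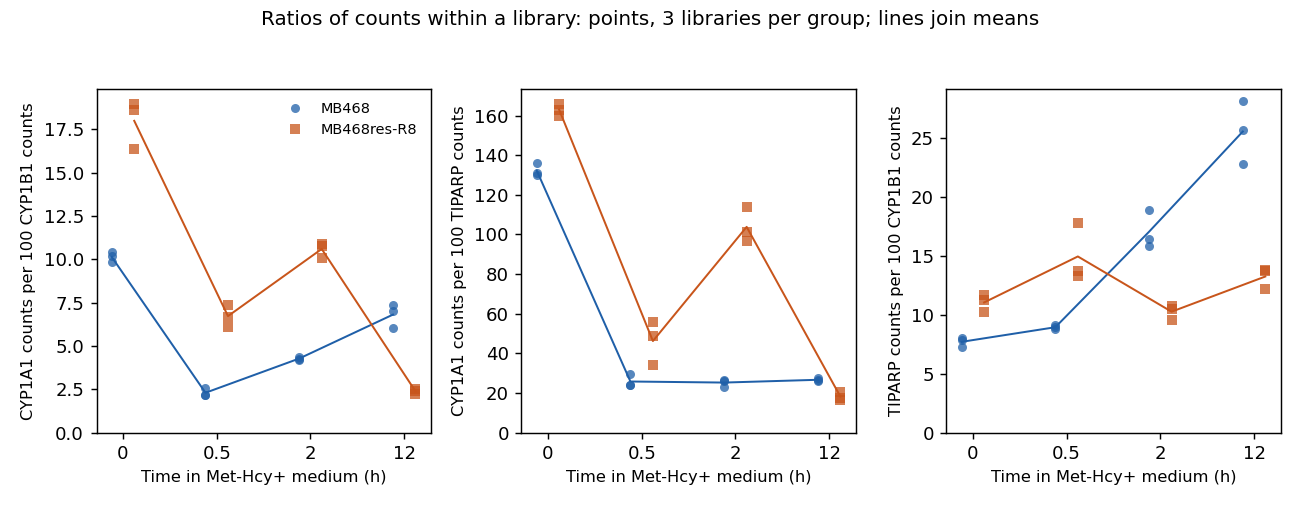
Ratios of raw counts of 2 genes within each library (counts per 100 counts) against time in Met-Hcy+ medium (h, evenly spaced categories), 3 libraries per group as points (MB468 blue circles, MB468res-R8 orange squares) and lines through their means. After 0 h, CYP1A1 per 100 TIPARP counts lies between 23 and 29.6 in MB468 at every time, and in MB468res-R8 it returns to 104 at 2 h before it reaches 18.1 at 12 h.

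The receptor and its partner moved less than CYP1A1 and CYP1B1 did in either line at 0.5 and 12 h. AHR in MB468 was at 5257 to 5388 normalized counts at 0 h, 5625 to 6518 at 0.5 h, 5980 to 6659 at 2 h, and 4966 to 5416 at 12 h. The values at 0.5 and 2 h lay above those at 0 h by 0.21 and 0.22 on the log2 scale, a direction that turned under spike-in scaling (-0.0036 and -0.19). Without the library that stood apart the value at 2 h was 0.18. At 12 h the difference from 0 h was -0.03 with a 95% interval of -0.14 to 0.07. In MB468res-R8 AHR was at 9975 to 11306 normalized counts at 0 h, 9472 to 10320 at 0.5 h, 10752 to 11535 at 2 h, and 7270 to 7586 at 12 h, and the range at 0 h overlapped those at 0.5 and 2 h. By 12 h it fell by 0.52 on the log2 scale (SE 0.0486, edgeR adjusted p = 8.73e-12). The responses differed by -0.49 (SE 0.0691, edgeR adjusted p = 1.41e-07), and -0.23 with adjusted p = 0.316 under spike-in scaling in edgeR. AHR was still higher in MB468res-R8 at 12 h, by 0.51 (SE 0.0489, edgeR adjusted p = 6.99e-12). The targets were split at that time. CYP1A1 and TIPARP were lower than in MB468, CYP1B1 was higher (0.37), and AHRR was not called (-0.04, edgeR adjusted p = 0.885).

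ARNT had its highest level at 0.5 h in both lines. Its normalized counts in MB468 were 1567 to 1669 at 0 h, 1988 to 2108 at 0.5 h, 1725 to 1842 at 2 h, and 1175 to 1198 at 12 h, and in MB468res-R8 they were 1596 to 1628, 1930 to 2056, 1649 to 1699, and 1471 to 1535. The groups at 0 and 0.5 h did not overlap in either line, and the log2 differences were 0.33 and 0.30. Under spike-in scaling the value in MB468 was 0.12 (SE 0.131), and that in MB468res-R8 was 0.34. At 2 h the differences were 0.14 in MB468 and 0.04 in MB468res-R8, and both turned under spike-in scaling (-0.27 and -0.0029). Without the library that stood apart the MB468 value was 0.13. By 12 h ARNT fell by 0.45 in MB468 (SE 0.0443, edgeR adjusted p = 7.07e-12). In MB468res-R8 the value was -0.10 (SE 0.0444, edgeR adjusted p = 0.0537), just short of the threshold of 0.05, and the difference between the responses was 0.35 (SE 0.0627, edgeR adjusted p = 6.59e-06).

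AHRR, the repressor, was near the floor and showed the widest spread. Its raw counts were 47 to 72 at 0 h and 36 to 55 at 12 h in MB468, and 23 to 75 and 29 to 39 in MB468res-R8. By 12 h it fell by 0.79 on the log2 scale in MB468 (SE 0.239, edgeR adjusted p = 0.0035). In MB468res-R8 the value was -0.49 (edgeR adjusted p = 0.0951), and without replicate 3 at 0 h it was -0.69 (edgeR adjusted p = 0.0231). The difference between the responses, 0.31, was below its SE of 0.349 and did not pass the test (edgeR adjusted p = 0.478), so that none was detectable at this depth. At 0.5 and 2 h its values in MB468 (0.14 and -0.14) were below their standard errors of about 0.24, and changed sign without replicate 2 at 0 h (-0.03) and without replicate 2 at 2 h, the library that stood apart (0.10). In MB468res-R8 they were -0.45 (SE 0.256) and -0.40 (SE 0.252), with groups that overlapped that at 0 h. The reference annotation has a readthrough transcript that joins PDCD6 to AHRR, and since PDCD6 itself had 1068 to 3523 counts a library, a share of the few AHRR reads could belong to it.

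At 12 h against 0 h, 5 of the 6 genes were called lower in MB468 (34.7% of all genes were called lower, 70.8% in either direction) and 4 in MB468res-R8 (31.1% and 61.3%), and none was called higher in either line. The response differed between the lines for 5 of 6 genes, with 56.5% of all genes called, and the levels at 12 h differed for 5 of 6, with 73.1% called. Against such shares of all genes, the number of members called is not a result about them. At 0.5 h the groups did not overlap for 5 of the 6 genes in MB468, 3 of them lower (43.4% of all genes did not overlap, 21.1% lower), and for 4 in MB468res-R8, 3 lower (45% and 22.1%). At 2 h they did not overlap for 5 in MB468, 2 lower (29.2% and 13.5%), and for 4 in MB468res-R8, 3 lower (17.8% and 8.6%).

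**Figure D3:**
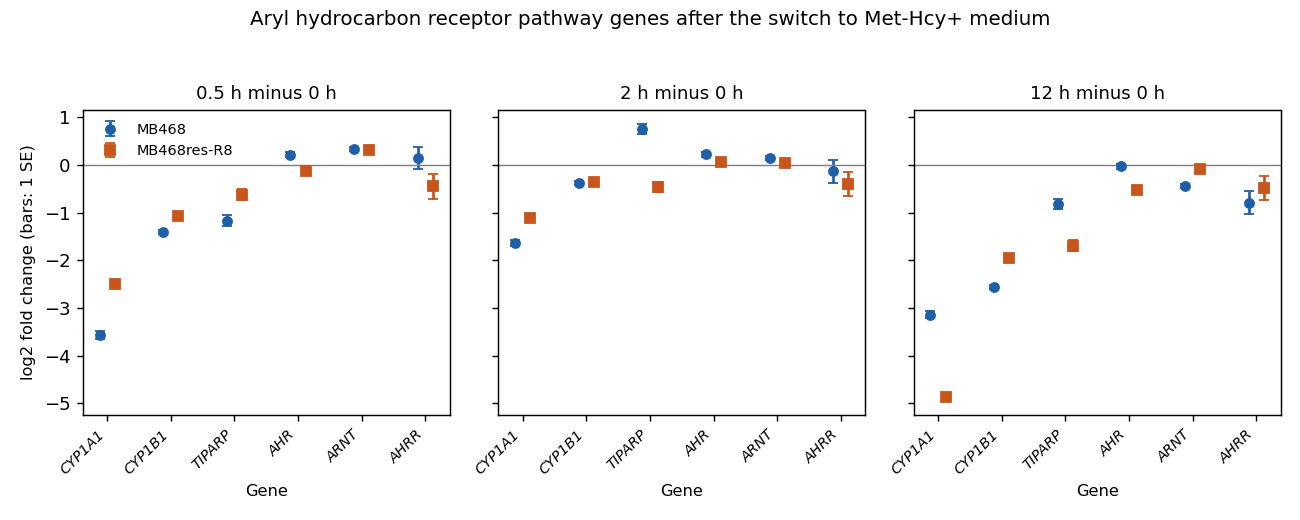
Log2 fold change of the 6 genes against 0 h at 0.5, 2, and 12 h in MB468 (blue circles) and MB468res-R8 (orange squares), from the fit of all 24 libraries with bars of 1 SE. CYP1A1 has the lowest value at each time, -3.57 in MB468 at 0.5 h and -4.87 in MB468res-R8 at 12 h, and TIPARP is the gene whose values at 2 h lie clearly on opposite sides of 0 (0.76 and -0.47).

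Neighbouring genes bear on how cleanly reads were assigned. CYP1A2, the close paralog next to CYP1A1, had raw counts of 7 to 10 per MB468 library at 0 h, a single count over the 3 libraries at 0.5 h, 2 to 5 at 2 h, and 2 to 6 at 12 h. In MB468res-R8 it had 25 to 36, 6 to 14, 7 to 17, and 3 to 11. These are 0.131 to 4.45% of the counts of CYP1A1, and a read shared by the paralogs could have been given to either. The library kit did not mark strand, so reads of a gene and its antisense partner cannot be told apart where they overlap. CYP1B1-AS1 was at 0.0575 to 0.269% of the counts of CYP1B1 and TIPARP-AS1 at 0.531 to 1.96% of those of TIPARP.

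Other genes of the pathway were grouped in 5 lists of 46 genes in all, of which 37 passed the filter on low counts. They were chosen with earlier results of these data known. Of the 5 tested metabolic targets, 4 were called lower in MB468 at 0.5 h and none higher (median log2 fold change -1.28, median of all genes 0.0072), with 33.9% of all genes called in either direction and 16.4% lower. XDH, which makes uric acid, went from 352.1 ± 32.44 to 140.9 ± 14.63 normalized counts. ALDH3A1, an aldehyde dehydrogenase near the floor, went from 10.82 ± 1.112 to 4.135 ± 0.9591. CYP1A2, also among the 4 and near the floor, had 7 to 10 raw counts a library at 0 h and 0 to 1 at 0.5 h. The other call, the quinone reductase gene NQO1, named after its values were seen, was a change of -0.27. In MB468res-R8 3 of the 5 were called lower, and 1 under spike-in scaling (median -0.40, with 33.7% of all genes called and 16.3% lower), with XDH at 582.5 ± 2.819 and 440.6 ± 38.24. The receptor complex list of chaperones and partners had 1 of 6 called in MB468 and 2 in MB468res-R8 at that time.

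Of the 7 other targets, 5 were called lower at 0.5 h in each line and 2 higher in MB468 and 1 in MB468res-R8, where 16.4% and 16.3% of all genes were called lower. NEDD9, an adhesion scaffold, had 5262 ± 96.89 normalized counts at 0 h, 2846 ± 184.1 at 0.5 h, 7012 ± 96.84 at 2 h, and 2531 ± 127.4 at 12 h in MB468. Like TIPARP in that line it was lower at 0.5 h and highest at 2 h, although its rise from 0 to 2 h turned under spike-in scaling. EREG, the growth factor epiregulin, went from 98.65 ± 8.604 to 57.69 ± 9.983 and then, at 2 h, 204.2 ± 40.51 in MB468. Without the library that stood apart the means at 2 h were 6995 for NEDD9 and 183.9 for EREG. SLC7A5, a transporter of large neutral amino acids including tryptophan, was at 43850 ± 786.5 and 29430 ± 2599 in MB468 and at 56010 ± 5240 and 25210 ± 608.6 in MB468res-R8 at 0 and 0.5 h. HES1, a Notch and receptor target, was named after its values were seen, so no p-value is given for it. It was higher at 0.5 h in both lines, by 2.13 and 3.05 on the log2 scale.

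At 2 h few of the listed genes were called, 7 of 37 in MB468 (5 higher and 2 lower, 16.3% of all genes) and 3 in MB468res-R8 (1 and 2, 4.37%). Without the library that stood apart, an alternative chosen after seeing the data, 4 were called higher and 3 lower in MB468. Under spike-in scaling, with a median over all genes of -0.41 in MB468, 24 were called there, 2 higher and 22 lower. In MB468res-R8 none was called higher and 2 lower under that scaling. CYP1A2 was the metabolic target called lower at 2 h in MB468res-R8, and the quinone reductase gene NQO1 in MB468, both named after their values were seen.

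At 12 h, over all 5 lists, 12 of the 37 genes were called higher and 18 lower in MB468. In MB468res-R8 they were 13 and 19, where 70.8% and 61.3% of all genes were called. Of the 5 metabolic targets, 1 was called higher and 2 lower in MB468, and 1 and 3 in MB468res-R8. Of the 7 other targets, 3 were called higher and 3 lower in MB468, and 1 and 6 in MB468res-R8. The shares of all genes called lower were 34.7% and 31.1%. XDH rose in both lines (2.43 and 1.04 on the log2 scale, edgeR adjusted p = 2.25e-27 and 1.07e-15), opposite to the cytochromes, to 1881 ± 102.9 and 1201 ± 47.7 normalized counts. STC2, a secreted glycoprotein of the stress response, rose in MB468 from 8458 ± 595.8 to 28520 ± 298.2 and fell in MB468res-R8 from 6281 ± 770.4 to 3094 ± 179.3, with a difference between the responses of -2.78 (SE 0.122, edgeR adjusted p = 5.65e-13). SLC7A5 did the same, to 82730 ± 2246 and 22300 ± 663.5. NEDD9, EREG, and SERPINB2, an inhibitor of plasminogen activation, fell in both. All 7 other targets were called lower in MB468res-R8 than in MB468 at 12 h, where 73.1% of all genes were called in either direction. Their median was -1.89 and that of all genes -0.06. ALDH3A1, with 9.34 ± 2.237 and 19.53 ± 2.81, remained higher in MB468res-R8.

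The receptor complex list moved in opposite directions in the lines at 12 h. In MB468, 5 of 6 genes were called lower (median -0.63), and in MB468res-R8 4 were called higher and 2 lower (median 0.49; 4 and 1 under spike-in scaling). HSP90AB1, a chaperone that holds the receptor in the cytoplasm, was named after its values were seen, so no p-value is given for it. It changed by -0.83 and 0.60, with a difference between the responses of 1.43 (SE 0.0541). Of the 11 coregulators, 7 were higher and 3 lower in MB468 (median 0.57, 70.8% of all genes called) and 6 and 4 in MB468res-R8 (median 0.14, 61.3% called), or 3 and 2 there under spike-in scaling. CREBBP, a histone acetyltransferase, stood at 2707 ± 53.65 normalized counts in MB468 at 0 h and 6826 ± 57.08 at 12 h, and in MB468res-R8 at 2586 ± 105.8 and 3126 ± 57.19. RELB, an NF-κB subunit that can pair with the receptor, stood at 844.3 ± 51.39 and 1190 ± 33.31 in MB468 and at 579.5 ± 6.756 and 203.1 ± 7.38 in the clone (difference -2.004, SE 0.0955, edgeR adjusted p = 1.19e-20).

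Among the enzymes that make or break down tryptophan-derived ligands, IDO1, IDO2, and TDO2, which open the kynurenine route, were too low to test. Of the 8 tested, 1 was higher and 5 lower at 12 h in MB468 (median -0.50) and 1 higher and 4 lower in MB468res-R8 (median -0.20), where spike-in scaling left 1 higher and none lower. These shares are near the 70.8% and 61.3% of all genes called and are not a result about the list. KMO, which acts further along that route, rose in MB468 from 42.3 ± 8.862 to 117.7 ± 9.723 normalized counts, and was at 38.56 ± 14.62 and 38.57 ± 8.89 in MB468res-R8 (difference -1.43, SE 0.349, edgeR adjusted p = 0.000571). At 0 h the 2 target lists differed in direction between the lines. Of the 5 metabolic targets, 4 were higher and 1 lower in MB468res-R8 (median 0.74), or 3 and 1 under spike-in scaling. Of the 7 other targets, 1 was higher and 4 lower there (median -0.43), or none and 5 under spike-in scaling. Of all genes, 53.5% were called, 26.4% higher and 27.1% lower. CYP1A2, among the metabolic targets called higher, had only 7 to 10 raw counts a library in MB468 and 25 to 36 in MB468res-R8. ALDH3A1 had 47.45 ± 8.876 normalized counts there against 10.82 ± 1.112 in MB468, whereas SERPINB2 had 47.3 ± 15.46 against 181.8 ± 10.74.

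**Figure D4:**
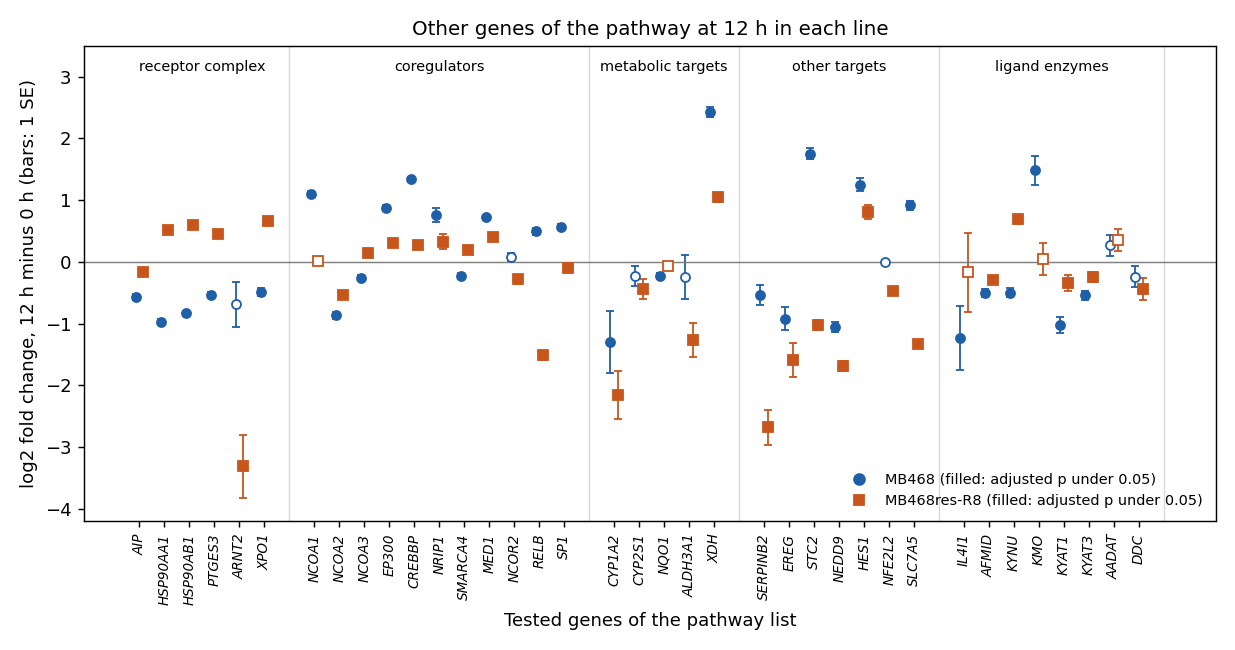
Log2 fold change at 12 h against 0 h of the 37 tested genes of the pathway lists in MB468 (blue circles) and MB468res-R8 (orange squares), with bars of 1 SE and filled symbols where the edgeR adjusted p was under 0.05. In the receptor complex list HSP90AB1 lies at -0.83 in MB468 and 0.60 in MB468res-R8, and XDH lies above 0 in both lines (2.43 and 1.04).

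The genes whose course over the 12 libraries of each line was most like that of each member are given as a description, since libraries of 1 line share its time course. They are ranked by the mean of the 2 within-line Pearson r of log2 CPM among 10948 candidates. For CYP1A1 they were DUSP3 (0.973), ADGRF1 (0.965), B4GALNT3 (0.954), TLDC1 (0.95), and NAB2 (0.95). For CYP1B1 they were MYADM (0.987), SH3PXD2B (0.986), and C1orf116 (0.984), and for TIPARP they were NEDD9 (0.955), DLX2 (0.951), and LIMCH1 (0.95). AHR was most like KLF5 (0.914), IRS2 (0.906), and RHOU (0.897), and ARNT most like B4GALT5 (0.97), MAGI3 (0.969), and TNFSF10 (0.968). AHRR reached 0.757 with UQCRQ, 0.729 with RPL10A, and 0.683 with GAD1.

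Between the members, CYP1A1 and CYP1B1 had an r of 0.827 in MB468 and 0.996 in MB468res-R8, and CYP1A1 and TIPARP 0.699 and 0.959. CYP1A1 and AHR had -0.222 in MB468 and 0.907 in MB468res-R8. CYP1B1 and AHR had 0.281 and 0.915, and TIPARP and AHR 0.217 and 0.914. The difference between the lines in these values was not tested, since each rests on 4 times with 3 libraries.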

How the data were processed

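Reads of polyA-selected RNA with spike-ins (single-end, 100 bp) were aligned by the authors with HISAT2 (2.1.0 per the submitters' processing notes) to the human genome (GRCh38/hg38) plus the spike-ins and counted per gene with featureCounts (Subread 1.5.3). The annotation release and the strand setting are not given in the sources used here. The deposited table holds raw counts of 26645 genes and 92 spike-ins in 24 libraries. Deposited tables of the authors' DESeq2 normalized values and of their own fold changes and p-values were not used.

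The members and the gene lists were chosen with earlier results of these data known. In R 4.3.3 with edgeR 4.0.16, filterByExpr (minimum count 10, minimum total 15) kept 14741 genes, including all 6 members. TMM factors scaled the libraries, and a robust quasi-likelihood fit gave a mean per group over all 24 libraries. Benjamini-Hochberg adjusted p-values cover all 14741 genes, with a threshold of 0.05. Intervals are 95% intervals from the SE of that fit. Symbols were matched to RefSeq, and transcript lengths are those of the canonical transcripts in GENCODE. The fit was tested on simulated data for 12 h against 0 h in MB468res-R8 (14020 genes, 200 changed), where it recovered 90% of 2-fold and 99% of 4-fold changes. Of its calls, 5.5% were of unchanged genes. As many genes were raised as lowered there, and far fewer changed than the 61.3% called in the data. The simulation therefore does not test whether the scaling holds in these data. Named list genes are up to 4 called genes per tested comparison with the largest change and a mean of at least 1 CPM, unless said otherwise. Alternatives were DESeq2 1.42.0 (its test and its size factors), spike-in library sizes, other filters, a fit of only the groups compared, a replicate block, a threshold of 0.01, and leaving out each library. The labels name no batch. Precision depends on depth, and intervals cover only the spread between libraries.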

Additional observations from a re-analysis of the deposited data

Results flagged for a closer look

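5 comparisons of members were picked out because the response at 12 h differed between the lines by the edgeR test of the difference. On the log2 scale, with the parental response subtracted from that of the clone, the difference was -1.726 for CYP1A1, 0.6073 for CYP1B1, -0.4909 for AHR, 0.3536 for ARNT, and -0.8663 for TIPARP. In the 3 libraries of each group, CYP1A1 and TIPARP at 12 h had lower mean levels in MB468res-R8, and CYP1B1, AHR, and ARNT had higher ones. The value for AHR did not pass the test under spike-in scaling. Another 3 comparisons were picked out because every library of 1 line moved one way from the mean at 0 h and every library of the other line moved the opposite way, with no test of the difference. These were AHR at 0.5 h (-0.3349), AHRR at 0.5 h (-0.5909), and TIPARP at 2 h (-1.229). For AHRR the difference rests on 27 to 89 counts in each library at 0.5 h. For AHR and AHRR at 0.5 h the value in MB468 turned below 0 under spike-in scaling, whereas TIPARP at 2 h kept its direction in each line, with 0.33 in place of 0.76 in MB468.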

How the results depend on the processing

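Scaling to the spike-ins changed the most. The list genes called then numbered 21 at 12 h and 12 at 0.5 h in MB468res-R8 (32 and 21 otherwise) and 24 at 2 h in MB468 (7 otherwise). CYP1A1 in MB468 moved to -3.767 at 0.5 h and -2.059 at 2 h, in its own direction. Values that turned were TIPARP at 0 h (-0.02038, edgeR adjusted p = 0.906), AHR and AHRR in MB468 at 0.5 h (-0.003646 and -0.07125), AHR and ARNT in MB468 at 2 h (-0.1923 and -0.2725), and ARNT in MB468res-R8 at 2 h (-0.002865). Between the lines at 0 h the CYP1A1 call was lost (0.28, edgeR adjusted p = 0.0533), and AHRR (-0.67, edgeR adjusted p = 0.0265) and ARNT (-0.31, edgeR adjusted p = 0.0351) were called lower. The medians of all genes under this scaling were -0.311 at 0 h between the lines, -0.204, -0.415, and -0.229 in MB468 at 0.5, 2, and 12 h, 0.203 for the difference between the lines, and -0.106 between them at 12 h. Relative to these, CYP1A1 in MB468 was at -3.562, -1.644, and -3.145, by construction near its values without spike-in scaling and no check on them. The cause of the shift in the medians was not tested.

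With only the groups compared in the fit, 1 list gene was called at 2 h in MB468res-R8 (3 otherwise), with fewer libraries to estimate the spread. Where every library needed at least 10 counts, ARNT at 12 h in MB468res-R8 passed the test (-0.12, edgeR adjusted p = 0.0211). DESeq2 size factors, the DESeq2 test, no filter, and the threshold of 0.01 changed no direction of a member and no count by over 1.5 times. Same-numbered libraries did not deviate together throughout (mean correlation over 6391 genes -0.145 to 0.277 per comparison, every pair over 0.1 in none), so the numbers were not taken as pairs. The highest mean, 0.277, was that of MB468res-R8 at 2 h against 0 h, where the pairs ranged from -0.0294 to 0.466. The replicate block kept the number of members called at 4, 5, 4, 5, and 5 in the 5 tested comparisons.

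Leaving out each library gave 3 to 4 members called at 0 h, 5 in each for MB468 at 12 h, the difference at 12 h, and the lines at 12 h, and 4 to 5 for MB468res-R8 at 12 h. CYP1A1 ranged from -3.632 to -3.507 and from -1.676 to -1.618 in MB468 at 0.5 and 2 h, and from -2.575 to -2.442 and from -1.2 to -1.082 in MB468res-R8. TIPARP at 0 h ranged from 0.2365 to 0.3573, and its call was lost without replicate 2 of MB468 or replicate 1 or 3 of MB468res-R8. AHRR ranged from -0.02745 to 0.2183 and from -0.3779 to 0.1049 in MB468 at 0.5 and 2 h, from -0.1291 to 0.04986 between the lines at 12 h (turning without replicate 2 of MB468 or replicate 3 of MB468res-R8), and, in MB468res-R8 at 12 h, from -0.6863 to -0.1824, called without replicate 3 at 0 h. ARNT at 0 h ranged from -0.02943 to 0.01852, turning without replicate 2 of MB468 or replicate 3 of MB468res-R8. Depth limits AHRR, with 15 to 89 counts a library, for which a difference of -0.49 (SE 0.253) was not called. Leaving out replicate 2 of MB468 at 2 h, chosen for the list after seeing the data, left the number of list genes called there at 7.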
